A study of Mus musculus with 8 samples.

Results

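The 9 genes described here are markers of neutrophils, examined in RNA-seq data of mouse peritoneal macrophage cultures. They are S100a8, S100a9, Csf3r, Cxcr2, Il1r2, Retnlg, Lcn2, Ltf and Ngp, taken by their symbol from a table of 55801 genes in which each of these symbols occurred in 1 row. All cells came from male C57BL/6 mice aged 6 to 8 weeks, and the abdominal cavity was flushed 72 h after an injection of thioglycollate, an irritant that draws leukocytes there. Each of 4 groups had 2 samples. The NC group received vehicle (DMSO), the LPS group received 100 ng/ml of lipopolysaccharide of bacterial cell walls for 4 h, the C498 group received 15 µM of C498, and the C498+LPS group received C498 for 0.5 h before the LPS challenge. C498 is a code-named small molecule that the study selected in a screen for compounds acting on JAK/STAT and NFκB signalling. The protocol names no step that sorts macrophages from the other cells flushed out, and nothing in the sources states that the 2 samples of a group came from separate animals, so the p-values measure only the spread between these samples.

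Neutrophils are short-lived leukocytes that leave the bone marrow filled with granules and enter an inflamed site early. Their precursors grow in response to G-CSF through the receptor encoded by Csf3r, mature cells follow CXC chemokines through Cxcr2, and Il1r2 encodes a decoy receptor that binds IL-1 without signalling. S100a8 and S100a9 encode the calcium-binding chains of calprotectin, which is abundant in the neutrophil cytosol. Lcn2 (lipocalin 2, which binds bacterial siderophores), Ltf (lactoferrin, which binds iron) and Ngp (neutrophilic granule protein) are products of the secondary granules, and Retnlg encodes a resistin-like secreted protein. Several of these genes are not restricted to neutrophils, since monocytes can express S100a8, Csf3r and Retnlg, and Lcn2 is made by macrophages and epithelia under stimulation.

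Expression is given as TPM levels, which account for the length of each gene and sum to one total per sample, so levels of different genes can be set side by side. The depth behind each value is unknown because TPM keeps no read number. Between 17528 and 18975 genes were above 0 in a sample, and the test covered the 12189 genes whose mean reached 1 TPM. The labelled cell type was met by its markers: 9 of 9 macrophage genes passed the filter, and their summed level was between 12431 and 20671 TPM. A gene listed at 0 may be a failed estimate. The 10 housekeeping genes, chosen after the files were seen, were all at 10.6 TPM or more. As abundant genes they cannot show whether a 0 of another gene is true.

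The 9 genes spanned the whole range of expression. Lcn2, S100a8, Csf3r and Retnlg had a mean TPM of at least 1 over the 8 samples, so 4 of 9 genes were tested. Il1r2 was near 1 TPM, and S100a9, Cxcr2, Ltf and Ngp, 4 of the 9, did not reach 1 TPM in any sample. The summed TPM of the 9 genes was carried mainly by Lcn2, whose share was between 71.4% and 82.6% of it in the 8 samples. In bulk RNA such as this, fewer cells of a type and less RNA per cell cannot be told apart.

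**Figure D1:**
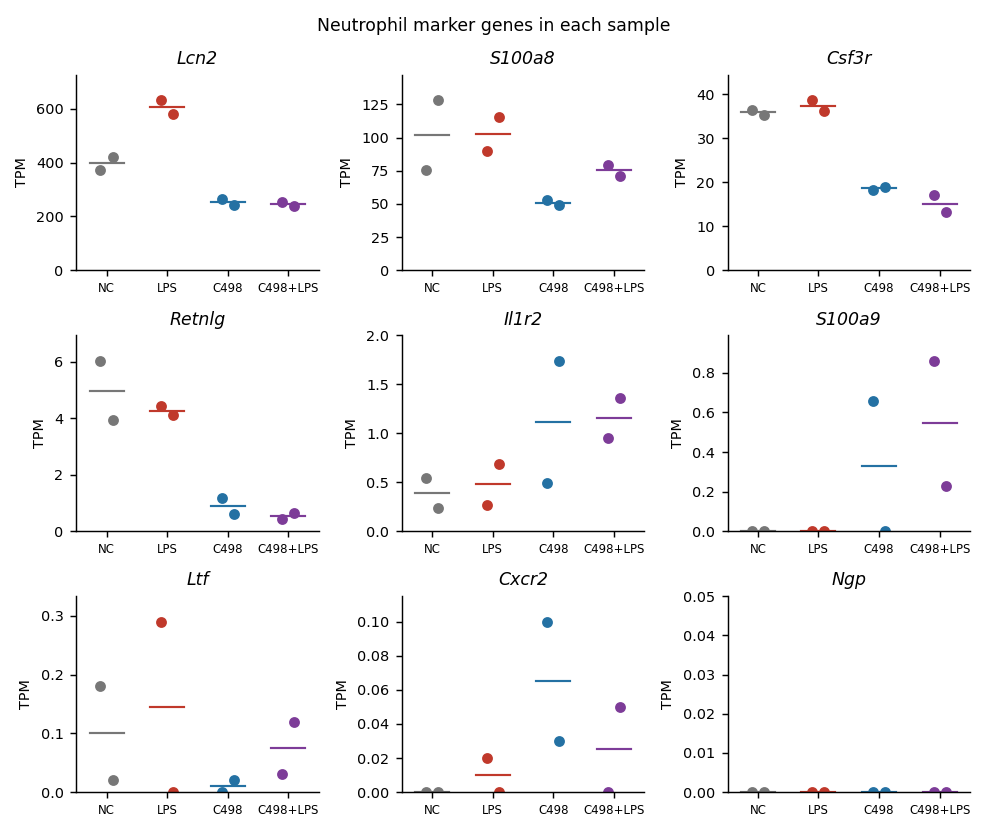
TPM of each of the 9 neutrophil marker genes (vertical axis, a separate linear scale starting at 0 for each gene) in NC, LPS, C498 and C498+LPS (horizontal axis), with a point for each sample and a horizontal line at the mean of the 2 samples of a group. Lcn2, S100a8, Csf3r and Retnlg are highest in NC or LPS samples, whereas S100a9, Cxcr2, Ltf and Ngp stay below 1 TPM in every sample.

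The calprotectin chains were at opposite ends of the range. S100a8 was at 75.9 and 128 TPM in NC, 89.9 and 116 TPM in LPS, 53.3 and 48.9 TPM in C498, and 79.5 and 71.0 TPM in C498+LPS. The 2 NC samples differed by more than any other pair of this gene, with a mean of 102 ± 37.0 TPM (SD, n = 2), against 103 ± 18.2 TPM in LPS, 51.1 ± 3.09 TPM in C498 and 75.3 ± 6.02 TPM in C498+LPS. Among the genes above 0 in the same sample, S100a8 stood between percentiles 86.5 and 94.1. S100a9 was listed at 0 in 5 of 8 samples, including all NC and LPS samples, and at 0.66 TPM in C498 replicate 1, 0.86 TPM in C498+LPS replicate 1 and 0.23 TPM in C498+LPS replicate 2. In GENCODE M21 on GRCm38 both are genes of chromosome 3, S100a8 at chr3:90668978-90670035 on the plus strand and S100a9 at chr3:90692632-90695721 on the minus strand, with 22596 bases between them. The transcripts of neither gene share a 31-base word with another gene of that annotation.

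Among the secreted products, Lcn2 was high and the granule genes Ltf and Ngp were at or near 0. Lcn2 was at 374 and 419 TPM in NC, 632 and 578 TPM in LPS, 265 and 243 TPM in C498, and 254 and 238 TPM in C498+LPS. All LPS samples were above all NC samples, and all samples with C498 were below all samples without it, so the order of the means was LPS (605 ± 37.8 TPM, SD, n = 2), NC (396 ± 32.3 TPM), C498 (254 ± 15.9 TPM) and C498+LPS (246 ± 11.2 TPM), of which the last pair overlapped. Lcn2 stood at or above percentile 96.8 in every sample. Ltf did not exceed 0.29 TPM and Ngp was listed at 0 in all 8 samples. Retnlg was at 6.03 and 3.93 TPM in NC, 4.43 and 4.11 TPM in LPS, 1.19 and 0.62 TPM in C498, and 0.42 and 0.66 TPM in C498+LPS. Every Retnlg value without C498 was above every value with it, while NC overlapped LPS and C498 overlapped C498+LPS. Retnlg transcripts share 5.51% of their 31-base words with Retnla, a related gene, so these low levels are uncertain to that extent.

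Of the receptor genes, Csf3r was measured well above 1 TPM and the others were low. Csf3r was at 36.5 and 35.2 TPM in NC, 38.7 and 36.1 TPM in LPS, 18.2 and 18.9 TPM in C498, and 17.01 and 13.2 TPM in C498+LPS. The values without C498 did not overlap those with it, NC overlapped LPS, and both C498+LPS samples were below both C498 samples. Of the 31-base words of Csf3r transcripts, 23.1% also occur in another gene, most of them in AC105061.2, a processed pseudogene on another chromosome, so its level is uncertain to the extent that the authors' counting divided those reads. Il1r2 went the other way in its means, at 0.54 and 0.24 TPM in NC, 0.27 and 0.69 TPM in LPS, 0.49 and 1.74 TPM in C498, and 0.95 and 1.36 TPM in C498+LPS. The Il1r2 values of C498+LPS were above those of LPS, but those of C498 overlapped NC. Cxcr2 did not exceed 0.10 TPM and was listed at 0 in 4 of 8 samples, among them both NC samples.

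The stretches before the start sites show what the promoters of these genes have in common by letters. RefSeq promoters on GRCm38.p6 were matched for 9 of 9 genes and searched over the 250 bases before the start for the C/EBP-type letters TTNNGCAA on both strands, since C/EBP factors are known regulators of granulocyte genes. S100a9, Retnlg, Lcn2, Ltf and Ngp, 5 of 9 genes, held the letters, and 9.56% of 32851 promoters did. The NFκB letters GGGRNWYYCC (R for A or G, W for A or T, Y for C or T, N for any base) were searched in the same way. They were found before 0 of 9 genes and before 3.90% of all promoters. At that share 0 of 9 does not set these genes apart, and sites with a mismatch were not counted. The sequences given are those of S100a9, Ltf and Ngp, which were at or near 0, Retnlg, which was lower with C498, and S100a8 as the counterpart without a match, with the parts that overlap annotated exons left off and the match in capitals. The stretches are on the strand of the gene, for S100a8 chr3:90668821-90668977 (plus), for S100a9 chr3:90695722-90695971 (minus), for Retnlg chr16:48872358-48872607 (plus), for Ltf chr9:111019042-111019270 (plus) and for Ngp chr9:110419558-110419746 (plus).
S100a8: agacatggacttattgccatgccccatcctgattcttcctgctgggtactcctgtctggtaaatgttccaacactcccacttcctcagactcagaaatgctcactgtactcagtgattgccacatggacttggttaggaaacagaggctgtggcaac
S100a9: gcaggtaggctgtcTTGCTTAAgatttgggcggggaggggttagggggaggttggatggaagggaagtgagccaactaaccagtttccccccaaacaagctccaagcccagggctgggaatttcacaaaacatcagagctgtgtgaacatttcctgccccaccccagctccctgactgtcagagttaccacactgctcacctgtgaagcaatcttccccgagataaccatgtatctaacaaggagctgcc
Retnlg: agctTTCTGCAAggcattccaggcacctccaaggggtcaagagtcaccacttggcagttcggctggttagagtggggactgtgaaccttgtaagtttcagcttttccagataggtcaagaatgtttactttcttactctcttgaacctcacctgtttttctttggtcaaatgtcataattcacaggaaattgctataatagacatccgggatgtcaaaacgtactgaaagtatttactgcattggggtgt
Ltf: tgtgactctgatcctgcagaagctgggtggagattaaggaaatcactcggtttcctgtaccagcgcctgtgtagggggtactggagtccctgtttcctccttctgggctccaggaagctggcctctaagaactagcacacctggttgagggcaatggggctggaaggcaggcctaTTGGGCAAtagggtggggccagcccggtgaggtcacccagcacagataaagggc
Ngp: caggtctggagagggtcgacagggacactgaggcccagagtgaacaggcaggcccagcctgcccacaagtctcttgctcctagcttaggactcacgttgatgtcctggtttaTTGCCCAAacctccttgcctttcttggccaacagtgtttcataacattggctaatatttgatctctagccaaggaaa
The match of S100a9 is TTGCTTAA, the reverse complement form, from 236 to 229 bases before the start, and that of Retnlg is TTCTGCAA from 246 to 239 bases before it. Ltf holds TTGGGCAA from 75 to 68 bases before the start. Ngp holds the letters at 2 places, and the one nearer to the start, TTGGGCAA from 11 to 4 bases before it, lies in an annotated exon and outside the printed stretch, as does the match of Lcn2, TTGCTCAA from 216 to 209 bases before the start. Genes with the letters were found at every level, from Ngp at 0 to Lcn2 at 632 TPM.

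The comparison LPS vs NC asks what the LPS challenge changed in these cultures. Lcn2 was 1.53-fold higher in LPS, with a log2 change of 0.61 (SE 0.0983) on the scale log2(TPM + 1) and an adjusted p of 0.00413 by limma, and so passed the test of significance but not the required fold change of 2. S100a8 changed by 0.05 (SE 0.239, adjusted p = 0.913) and Csf3r by 0.06 (SE 0.140, adjusted p = 0.794) on the log2 scale, both less than their standard error. The log2 change of Retnlg was -0.16 (adjusted p = 0.703), and its sign turned with centring on the median gene. A gene was called where it changed by 2-fold or more and its adjusted p did not exceed 0.05, and by this rule limma called 0 of the 4 tested genes, and 1 had an unadjusted p under 0.05, as did 41.2% of all tested genes. Over all tested genes 5.55% were called higher and 6.68% lower. The median log2 change was 0.05 for the 4 genes and -0.17 for all tested genes, and centring each sample on its median gene moved the latter to about 0.

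The comparison C498 vs NC asks what the compound did without LPS. Each of the 4 tested genes was lower in C498, with no overlap between the samples, and each had an adjusted p of at most 0.05. For comparison, 28.4% of all tested genes were lower without overlap, and 6.19% were lower at that adjusted p. Only Retnlg also passed the fold threshold, falling from 4.98 ± 1.48 to 0.905 ± 0.403 TPM (SD, n = 2), a 5.50-fold difference of the means and a log2 change of -1.64 (SE 0.272, adjusted p = 0.00975). Without C498 replicate 2 the adjusted p of Retnlg was 0.0689. Csf3r had a log2 change of -0.91 (SE 0.140, adjusted p = 0.00738) and Lcn2 of -0.64 (SE 0.0983, adjusted p = 0.00746), the means being 1.93-fold and 1.56-fold lower. Their adjusted p rose to 0.0708 without C498 replicate 1 for Csf3r and to 0.0698 without C498 replicate 2 for Lcn2. S100a8 had a log2 change of -0.94 (SE 0.239, adjusted p = 0.0409), a value that became -1.31 when NC replicate 1 was left out and -0.56 when NC replicate 2 was. The count of genes called lower was therefore 1 of 4, and it was 2 without NC replicate 1 and 0 without C498 replicate 2, while 5.64% of all tested genes were called higher and 1.36% lower. The median log2 change was -0.92 for the 4 genes and 0.01 for all tested genes. Over the same samples 2 of 6 tested monocyte markers, Ly6c2 and Hp, were called lower and 0 higher, 5 of 6 fibroblast markers were called higher, and their part in these values was not tested.

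The comparison C498+LPS vs LPS asks what the compound changed under the challenge. Lcn2, Csf3r and Retnlg fell, and S100a8 did not pass the test. Lcn2 was 2.46-fold lower, with a log2 change of -1.29 (SE 0.0983, adjusted p = 0.000619), and Csf3r was 2.47-fold lower, with a log2 change of -1.26 (SE 0.140, adjusted p = 0.00191). Both were called in 16 of 16 settings. Retnlg fell from 4.27 ± 0.226 to 0.540 ± 0.170 TPM (SD, n = 2), a 7.91-fold difference of the means and a log2 change of -1.78 (SE 0.272, adjusted p = 0.00607), with an adjusted p of 0.0531 without LPS replicate 1. S100a8 had a log2 change of -0.44 with an interval from -0.998 to 0.128 and an adjusted p of 0.269, although its samples did not overlap, as was so for 30.9% of all tested genes in this direction. So 3 of the 4 tested genes were called lower, beside 2.18% of all tested genes, and 0 were called higher, beside 5.39%. The median log2 change was -1.28 for the 4 genes and 0.01 for all tested genes.

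The comparison C498+LPS vs C498 and the interaction ask whether the response to LPS was the same with the compound present. With C498, the log2 change of Lcn2 after LPS was -0.04 (SE 0.0983, adjusted p = 0.807), a value that became 0.17 with centring on the median gene, against 0.61 without C498. The difference between these responses, the interaction, was -0.65 (SE 0.139) with an unadjusted p of 0.00204, but its adjusted p over all tested genes was 0.131. S100a8 had a log2 change of 0.55 after LPS in the presence of C498 (SE 0.239, adjusted p = 0.166) and Csf3r of -0.29 (SE 0.140, adjusted p = 0.204), and the groups did not overlap for either gene, while 17.4% of all tested genes were higher and 48.8% lower without overlap. Retnlg had a log2 change of -0.29 (adjusted p = 0.505) with overlapping samples. By limma 0 of the 4 genes were called in C498+LPS vs C498, with 0 at an unadjusted p under 0.05 against 31.9% of all tested genes, beside 2.52% of all tested genes higher and 3.13% lower. For the interaction 0 of 4 were called, with 1 at an unadjusted p under 0.05 against 11.1% of all tested genes, beside calls of 0.0738% higher and 0.394% lower. These comparisons share samples, so their values are not independent of each other.

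**Figure D2:**
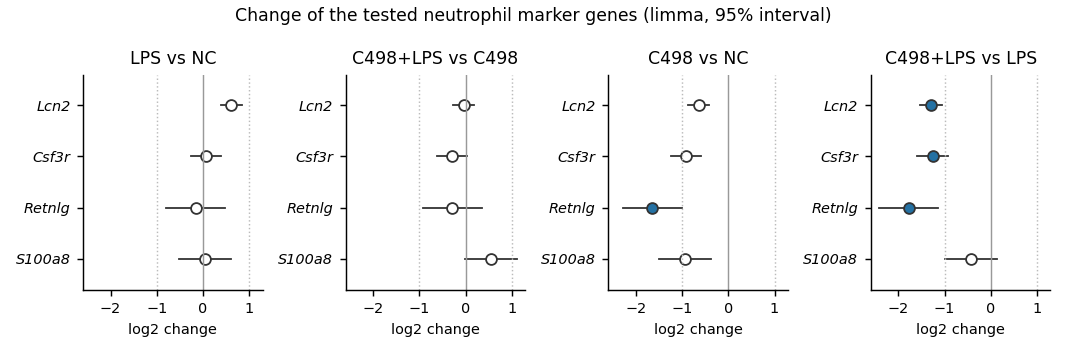
Log2 change of Lcn2, S100a8, Csf3r and Retnlg (horizontal axis, log2(TPM + 1) scale) in each comparison between groups, with the limma estimate as a point and its interval as a bar. The bars of all 4 genes lie below 0 in C498 vs NC, those of Lcn2, Csf3r and Retnlg do so in C498+LPS vs LPS, and the bar of Lcn2 lies above 0 in LPS vs NC.

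Genes below the filter were also fitted with all genes above 0. Il1r2 then had a log2 change of 0.55 in C498 vs NC (adjusted p = 0.426) and of 0.55 in C498+LPS vs LPS (adjusted p = 0.455), neither of which passed the threshold. S100a9, Cxcr2 and Ltf were not called in any comparison of this fit, and Ngp, at 0 in every sample, could not be fitted. A change of S100a9, Cxcr2, Ltf or Ngp was not detectable at these levels.

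Another 34 neutrophil genes, listed by their granule, surface or cytosolic product, also ranged widely, from 0 to 612 TPM. Of these, 13 were tested, 14 did not reach 1 TPM in any sample, and 8 were listed at 0 throughout: Elane and Ctsg, the serine proteases of the primary granules, and Ms4a3, Olfm4, Itgb2l, Mrgpra2a, Stfa1 and Stfa2. Of these, Mrgpra2a, Stfa1 and Stfa2 share 92.4%, 43.8% and 33.3% of their 31-base words with other genes, so their values are uncertain. Mpo, the myeloperoxidase of primary granules, did not exceed 0.05 TPM. Ly6g, the antigen by which mouse neutrophils are commonly gated, was at 2.62 TPM in C498 replicate 2 and listed at 0 in the other 7 samples. In contrast, the collagenase gene Mmp8 was between 43.2 and 125 TPM, and Alox5ap, which helps 5-lipoxygenase make leukotrienes, was between 246 and 576 TPM. Alox5ap is known to be expressed by macrophages too.

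The formyl peptide receptor genes were called in all 4 comparisons between groups. Fpr1, a receptor for bacterial formyl peptides, was at 87.1 and 71.98 TPM in NC, 389 and 367 TPM in LPS, 16.9 and 19.3 TPM in C498, and 71.0 and 50.4 TPM in C498+LPS. It rose in LPS vs NC (log2 change 2.24, adjusted p = 0.000174) and in C498+LPS vs C498 (1.68, adjusted p = 0.0015), and fell in C498 vs NC (-2.08, adjusted p = 0.000695) and in C498+LPS vs LPS (-2.64, adjusted p = 0.000461). Fpr2, its relative, followed the same order of means, 199 TPM in NC, 588 TPM in LPS, 73.1 TPM in C498 and 167 TPM in C498+LPS, and was called in each of these comparisons, although 43.0% of its 31-base words occur in other genes. Hdc, the histamine-forming decarboxylase, rose in LPS vs NC from 2.66 to 16.9 TPM, and in C498+LPS vs C498 from 2.99 to 9.55 TPM, the latter with an adjusted p of 0.0582 without C498 replicate 1.

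By count, LPS vs NC had 3 of the 13 tested genes called higher (Fpr1, Fpr2, Hdc), beside 5.55% of all tested genes, and 1 lower, the interferon-inducible Ifitm6, a share near the 6.68% of all tested genes. C498+LPS vs C498 had 3 higher and 0 lower, beside 2.52% and 3.13%. C498 vs NC had 0 higher and 3 lower (Fpr1, Fpr2, Ifitm6), beside 5.64% and 1.36%, and C498+LPS vs LPS had 0 higher and 3 lower (Fpr1, Fpr2, Wfdc21), beside 5.39% and 2.18%. The call of Ifitm6 in C498 vs NC had an adjusted p of 0.0209, which rose to 0.137 without C498 replicate 1, and the call was lost in 5 of the fits with a sample left out. Wfdc21 was at 3.74 and 15.1 TPM in LPS and listed at 0 in both C498+LPS samples, and its call was lost without LPS replicate 2 or either C498+LPS sample (adjusted p up to 0.102). The median log2 changes of the 13 genes were 0.66, -0.52, -0.77 and -0.07 in LPS vs NC, C498 vs NC, C498+LPS vs LPS and C498+LPS vs C498, and those of all tested genes were -0.17, 0.01, 0.01 and -0.18.

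Genes of the ligands were examined beside those of their receptors. Csf3, the gene of G-CSF and thus of the ligand of Csf3r, was at 2.34 ± 0.573 TPM in NC, 33.6 ± 1.58 TPM in LPS, 10.9 ± 1.52 TPM in C498 and 34.6 ± 3.27 TPM in C498+LPS (SD, n = 2). Its values in LPS and C498+LPS differed by 0.04 on the log2 scale (adjusted p = 0.92), whereas Csf3r was lower in C498+LPS. Cxcl1 and Cxcl2, neutrophil attractants that bind Cxcr2, rose in LPS vs NC from 12.4 to 662 TPM and from 35.5 to 2679 TPM, and both also rose in C498 vs NC, to 122 and 700 TPM, while Cxcr2 itself stayed at or below 0.10 TPM. Il1b, whose product Il1r2 binds, rose in LPS vs NC from 17.5 to 1633 TPM.

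**Figure D3:**
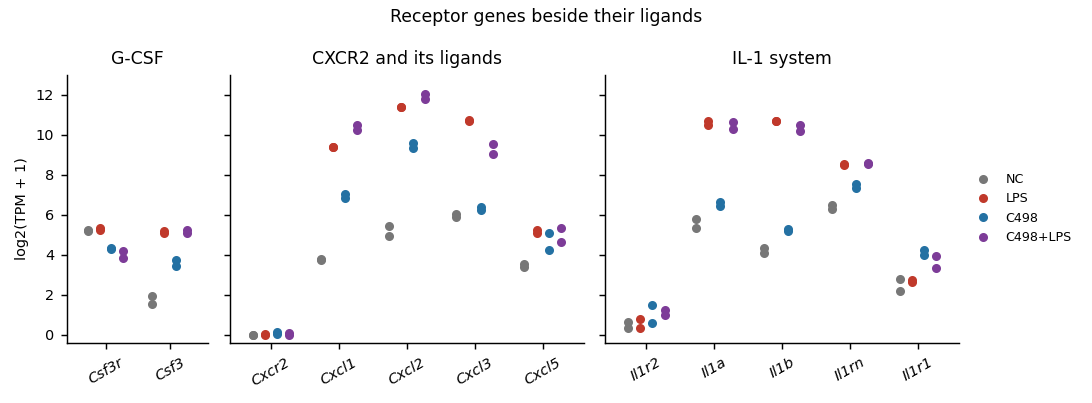
log2(TPM + 1) (vertical axis) of receptor genes and of the genes of their ligands (horizontal axis) in 3 panels for G-CSF, CXCR2 and IL-1, with a point for each sample coloured by group. For the ligands shown, all LPS and C498+LPS points lie above those of NC. Cxcr2 and Il1r2 stay near the bottom in all 8 samples. Ppbp, a further ligand of Cxcr2, is not shown.

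A list of 15 genes held ligands and receptors of the 9 gene products, and also Il1r1, Il1rap and Il1rn of the IL-1 system. Of these 15 genes, 12 were tested. In LPS vs NC 8 were called higher (Cxcl1, Cxcl2, Cxcl3, Cxcl5, Il1a, Il1b, Il1rn, Csf3) and 0 lower, beside 5.55% and 6.68% of all tested genes, and in C498 vs NC 7 were called higher (Cxcl1, Cxcl2, Cxcl5, Il1b, Il1rn, Csf3, Il1r1) and 0 lower, beside 5.64% and 1.36%. In C498+LPS vs LPS 0 were called higher and 2 lower, beside 5.39% and 2.18%, namely Cxcl3 (log2 change -1.42, adjusted p = 0.00195) and Tlr4, a receptor on which calprotectin acts (-1.10, adjusted p = 0.0446). Cxcl1 was higher in the same comparison, at 1307 against 662 TPM (log2 change 0.98, adjusted p = 0.00195), just under the fold threshold. Cxcl2, Il1r1 and Il1rap were also higher without overlap, with adjusted p of 0.0821, 0.0539 and 0.198, and Il1b was lower without overlap, at 1290 against 1633 TPM (adjusted p = 0.128). In all, 4 of the 12 genes were higher and 3 lower without overlap. The shares of all tested genes were near this, 31.9% and 30.9%. The Tlr4 call was lost without any of the 6 samples of LPS, C498 and C498+LPS in turn, and the Cxcl5 call in C498 vs NC was lost without any of the 8 samples in turn. With a sample left out, Il1b, Il1rn and Il1r1 each lost their C498 vs NC call in 2 fits (adjusted p up to 0.0564, 0.0231 and 0.0891, so that Il1rn lost it by the fold threshold), and Cxcl5 lost its LPS vs NC call in 1 (adjusted p = 0.058). Lrp1, a receptor that takes up lactoferrin, was between 287 and 654 TPM although Ltf was near 0.

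Among 12 regulators of granulocyte and inflammatory genes, 10 were tested. Spi1, the gene of PU.1, which is needed for myeloid cells, was between 417 and 483 TPM in NC and LPS and between 221 and 266 TPM with C498, with log2 changes of -0.77 in C498 vs NC (adjusted p = 0.00398) and -0.97 in C498+LPS vs LPS (adjusted p = 0.00155), below the fold threshold. Cebpa, which drives granulocyte fate, fell in LPS vs NC from 199 to 29.6 TPM and in C498+LPS vs C498 from 179 to 43.1 TPM. Cebpd fell in C498+LPS vs LPS from 25.5 to 11.3 TPM (log2 change -1.11, adjusted p = 0.0111), a call that was lost without any of the 4 samples compared (adjusted p up to 0.0928). The calls upward were Nfkb1 and Nfkbiz in LPS vs NC (2 of 10, beside 5.55% of all tested genes) and Nfkbiz in C498 vs NC (1 of 10, beside 5.64%). Irf8, a factor of the monocyte lineage, was called higher in C498+LPS vs LPS (1 of 10, beside 5.39%). Nfkb1, Nfkbiz and Irf8 were called higher in C498+LPS vs C498 (3 of 10, beside 2.52%). The calls downward numbered 1, 0, 1 and 1 in the same order, beside 6.68%, 1.36%, 2.18% and 3.13%. A count of 1 in 10 is close to several of these shares, so it is not read as a trait of the regulators.

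Markers of other cell types moved with the C498 groups. The monocyte genes, summed over a list of 7, were between 464 and 511 TPM without C498 and between 172 and 208 TPM with it. Ly6c2 and Hp carried 88.8% of the summed group means in NC and 59.7% in C498+LPS. Ly6c2, an antigen of inflammatory monocytes, fell in C498 vs NC from 231 to 61.4 TPM and in C498+LPS vs LPS from 254 to 41.5 TPM, and Hp, the gene of haptoglobin, fell from 205 to 81.3 TPM and from 159 to 66.4 TPM. The other 4 tested monocyte genes were not called in either comparison: F13a1 was lower in both, without overlap, Vcan averaged 15.3 TPM in C498 against 10.1 TPM in NC, also without overlap, and Plac8 and Chil3 had log2 changes of 0.04 and 0.09 in C498 vs NC and of 0.51 and -0.03 in C498+LPS vs LPS. The fibroblast genes, a list of 6, went from between 150 and 200 TPM without C498 to between 618 and 911 TPM with it, and Col1a1, Col1a2, Dcn and Col3a1 were called higher in both comparisons, while Lum, a further marker of fibroblasts, did not exceed 0.28 TPM. The mesothelial list of 5 went from between 4.66 and 5.58 TPM to between 14.8 and 24.5 TPM. The summed macrophage level was between 17941 and 20671 TPM without C498 and between 12431 and 16130 TPM with it, with a median log2 change over the 9 genes of -0.44 in C498 vs NC and -0.62 in C498+LPS vs LPS. Lyz2, the lysozyme gene, dominated this sum, at 15986 TPM in NC, 13225 TPM in LPS, 11497 TPM in C498 and 8536 TPM in C498+LPS. The means of the other 8 genes summed to 4430, 4983, 4562 and 4789 TPM. This sum includes Cd14, which was higher with C498, at 675 against 244 TPM in NC and 1795 against 1301 TPM in LPS. In both comparisons 7 of the 9 genes had a log2 change below 0, beside 48.3% and 48.8% of all tested genes. By limma 0 of the 9 genes were called lower in either comparison, although 2 and 4 were lower at an adjusted p of at most 0.05. The eosinophil sum did not exceed 2.53 TPM, with Epx and Prg3 at 0, and the mast cell, B cell and T cell sums did not exceed 23.2, 13.8 and 5.99 TPM. The part of these changes in the lower levels of Lcn2, Csf3r, Retnlg and S100a8 was not tested.

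**Figure D4:**
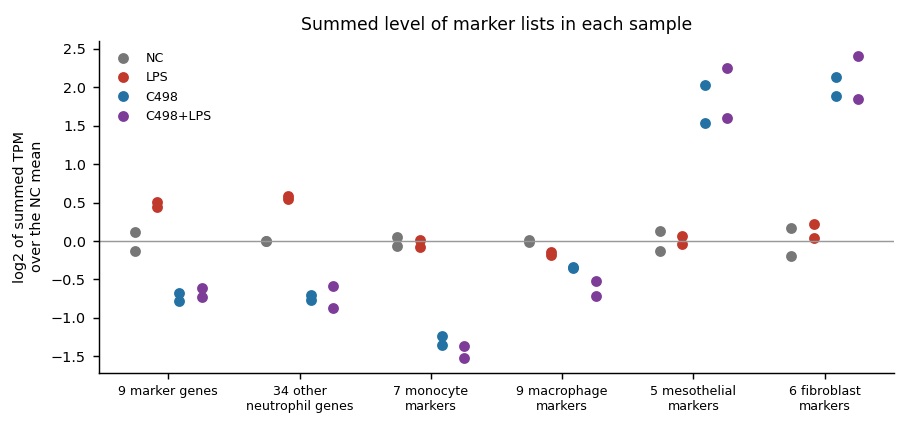
Log2 of the summed TPM of each marker list over its NC mean (vertical axis) for the lists on the horizontal axis, with a point for each sample coloured by group. The C498 and C498+LPS points lie below 0 for the neutrophil, monocyte and macrophage lists, the last of which is dominated by Lyz2, and above 0 for the fibroblast and mesothelial lists.

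The profiles nearest to those of the 4 tested genes over the 8 samples belonged to other genes than the 9. The distance was the root mean square difference of log2(TPM + 1) after centring each gene on its own mean. Csf3r was nearest to Ncf1, a subunit of the phagocyte NADPH oxidase (0.0601), then to Zfp710 (0.0971) and Lrrc25 (0.106). Ncf1 was between 190 and 217 TPM without C498 and between 85.1 and 112 TPM with it, so both genes were lower in every sample with C498. Retnlg was nearest to Clec4a1, a C-type lectin (0.157), Sla and Ptpro, Lcn2 to Tbc1d13 (0.0966), Agtrap and Scarf1, and S100a8 to Clec2d (0.137), Ppp1r11 and Ptges2. Among the 4 genes themselves the closest pair was Csf3r and Lcn2 (0.241), and the most distant was S100a8 and Retnlg (0.696).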

How the data were processed

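RNA was sequenced from 8 samples in 4 groups of 2. As far as the study's methods and the submitters' processing notes say, reads were filtered with fastp, aligned with HISAT2, assembled with StringTie and quantified with RSEM. Tool versions, genome build and annotation are not given in the sources used here. The table that the authors deposited holds TPM to 2 decimals and, beside it, group means, which were not used. The authors' DESeq2 test needs counts and was replaced.

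Levels were transformed as log2(TPM + 1), a scale that understates the changes of low genes, and those genes that averaged 1 TPM or more over the 8 samples, 12189 in all, were fitted with limma 3.58.1 in R 4.3.3 (1 mean per group, all 8 samples, variance trend). Calls needed a 2-fold change or more and a two-sided p, adjusted by Benjamini-Hochberg over all tested genes, not above 0.05. The steps were tested on simulated data. The 9 genes and the gene lists were chosen with earlier results of these data known. Other genes named are those of the lists that were called, abundant or at 0, and the 3 nearest profiles of each tested gene. Coordinates and shared words came from GENCODE M21 on GRCm38, and promoters from RefSeq on GRCm38.p6. Alternatives were a pseudocount of 0.1, no filter, a mean TPM of at least 5, median centring, quantile normalization, a fit without the other groups, no variance trend, a replicate block, no fold threshold, and leaving out each sample. The depth is unknown, so no counting interval was given.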

Additional observations from a re-analysis of the deposited data

Results flagged for a closer look

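For 6 of the 12 tested genes of the ligand and receptor list, the response to LPS differed between cells with and without C498. The call was that of the interaction in the limma fit, beside 0.394% of all tested genes called lower and 0.0738% higher. The difference of the log2 responses was -3.76 for Cxcl2, -2.22 for Cxcl1, -1.81 for Csf3, -1.76 for Cxcl3, -1.36 for Il1b and -1.03 for Il1rn, with adjusted p of 0.0031, 0.00341, 0.0391, 0.031, 0.0412 and 0.0492. The calls of Csf3, Cxcl3, Il1b and Il1rn were lost in 9, 8, 9 and 11 of the alternatives, most of them with a sample left out. In C498 vs NC, 5 of the 6 were called higher, and Cxcl3 was 1.27-fold higher without overlap but was not called (adjusted p = 0.189).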

How the results depend on the processing

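Lcn2 and Csf3r in C498+LPS vs LPS were called in 16 of 16 settings and Retnlg in 14 of 15. For the 4 tested genes, 296 values under the alternatives other than the one without the fold threshold kept their direction and their side of the thresholds, 3 lost a call, 2 gained one and 10 changed sign, none of the latter in a called change. The count called lower in C498 vs NC, 1, became 0 with a mean TPM of at least 5, which removes Retnlg, 0 with only the groups compared, 2 with centring, 4 without the fold threshold, and 0 to 2 with a sample left out. Without the fold threshold, Lcn2 was called in LPS vs NC, a count of 1, where 9.84% of all tested genes were higher, and the 4 genes lower in C498 vs NC stood beside 6.19% of all. The other neutrophil genes called lower of 13 then became 2 in LPS vs NC, 5 in C498 vs NC, 6 in C498+LPS vs LPS and, for C498+LPS vs C498, 2, beside 19.8%, 6.19%, 7.7% and 11.7% of all tested genes, and those called higher were 4, 0, 0 and 3, beside 9.84%, 9.29%, 9.08% and 4.51%. Centring turned Lcn2 in C498+LPS vs C498 to 0.17 and Retnlg in LPS vs NC to 0.0083, and quantile normalization turned the latter to 0.069. With a sample left out, these ranged from -0.11 to 0.021 and from -0.42 to 0.096, Retnlg in the interaction from -0.39 to 0.12, and S100a8 in LPS vs NC from -0.33 to 0.42. Except where the construction shows it, the cause was not tested. Across alternatives the adjusted p of S100a8 in C498 vs NC ranged from 0.00836 to 0.192. Without the pseudocount the mean of Retnlg in C498 was 0.182 of NC, an alternative chosen after seeing the data.

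The labels do not say that a replicate number marks a shared animal or batch. The deviations of same-numbered samples correlated between 0.0397 and 0.168, above 0.1 for 3 of the 6 pairs of groups, so the numbers were not treated as a pairing. The replicate block left the counts of genes called at 1 for C498 vs NC and at 3 for C498+LPS vs LPS. Depth is unknown, so levels under 1 TPM rest on the 2 samples alone.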
